A study of Homo sapiens with 12 samples.

Results

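HERVH internal parts and their long terminal repeats (LTRs) of the LTR7 group were followed in RNA bound to ZC3H18 and to a control protein. Members were the annotated repeat elements of the subfamilies HERVH-int, LTR7, LTR7A, LTR7B, LTR7C and LTR7Y with reads on the strand of the element. They numbered 4874 of 1509971 elements with such reads in 6 classes of transposable elements, and the other LTR-class elements numbered 239098. HERVH-int made up 3240 of the members, LTR7 996, LTR7B 349, LTR7Y 152, LTR7C 135 and LTR7A 2.

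HERVH is a primate family of endogenous retroviruses, remnants of germline infections in which an internal part with the former viral genes lay between a pair of LTRs. Its name comes from the histidine tRNA that primed reverse transcription, and the primer binding site lies just downstream of the 5′ LTR, at the start of the internal part. LTR7 and its variants act as promoters and polyadenylation sites of HERVH, and many copies survive as solitary LTRs after recombination removed the internal part. In early embryos and pluripotent stem cells HERVH RNA is abundant and nuclear, and LTR7 copies drive several long noncoding RNAs there and in some tumours. ZC3H18 is a zinc-finger protein that links nuclear RNA to the machinery that degrades it.

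The RNA came from 12 PAR-CLIP libraries, a method in which cells take up the photoreactive nucleoside 4sU, light crosslinks RNA to protein, and the protein is recovered through its tag together with the crosslinked RNA. Cells of the human melanoma line A375 received, by transient transfection, 1 of 4 constructs carrying a V5 tag, and labelling began 24 h later. Clover libraries (n = 3) came from a fluorescent control protein, Z18fl (n = 3) from full-length ZC3H18, Z18trunc (n = 3) from a truncated ZC3H18 modelled on a patient frameshift that lacks the region recruiting the RNA surveillance machinery, and Z18truncZnFmut (n = 3) from the truncated protein with aromatic residues of its zinc finger mutated. The methods describe no step that removed the cells' own ZC3H18, bound complexes were not selected by size, and ribosomal RNA was depleted before stranded sequencing. The labels do not say whether the 3 libraries of a construct were separate cultures, so p-values measure only the spread between these samples.

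The LTR variants were compared by motifs in the hg38 reference sequence: TATAAA, the letters of a TATA box, and AATAAA, the letters of a polyadenylation signal. Both were searched on the strand of the element only. All coordinates are hg38, counted from 1. Among member LTRs of 400 to 500 bases, TATAAA occurred in 90.4% of 614 LTR7 elements, 91.6% of 119 LTR7Y, 78.3% of 106 LTR7C and 1.02% of 197 LTR7B, against 26.7% of 41142 other LTRs of that length. AATAAA occurred in 65.8% of LTR7, 95.8% of LTR7Y, 49.1% of LTR7C and 86.3% of LTR7B, against 43.0% of the other LTRs. These are shares of letters in the reference sequence, and a match is not evidence of a used site. The LTR variants thus differed in motif content, with LTR7B standing apart by its near lack of TATAAA.

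The libraries held 16683132 to 17673644 aligned fragments in Clover and 21285347 to 25686948 in the other 9. Counts on transposable elements on the strand of the element ranged from 660648 to 1414945 in 11 libraries and came to 2183589 in Z18truncZnFmut replicate 3. That library stood apart, with 3278 member elements listed against 624 to 1282 elsewhere and 16.3% of its aligned fragments on transposable elements of either strand against 6.28% to 9.59% elsewhere. Values without it are given beside the main results that include it. The files hold repeat elements only, so the labelled cell line could not be checked against marker genes.

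Member counts per library were 21354, 20771 and 25837 with Clover, 17140, 19347 and 22026 with Z18fl, 25727, 27384 and 21852 with Z18trunc, and 32480, 31553 and 41857 with Z18truncZnFmut. Members were abundant relative to their number, since they held 18.4% to 22.0% of all counts on LTR-class elements in the Clover libraries. That share was 10.1% to 11.4% in Z18fl, 11.3% to 14.8% in Z18trunc and 11.05% to 18.8% in Z18truncZnFmut, where replicate 3 was the lowest. Counts were concentrated in HERVH-int, with 280183 of 307328 counts (91.2%), while LTR7 held 16256, LTR7Y 4666, LTR7C 4406 and LTR7B 1812. LTR7A held 4 counts, all in Z18truncZnFmut replicate 3 and none mapping uniquely, and was not tested.

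As CPM, counts per 1000000 aligned fragments, all members together reached 1280.0, 1214 and 1462 in the Clover libraries, 740.2, 843 and 857 with Z18fl, 1082, 1132 and 923 with Z18trunc, and 1344, 1482 and 1728 with Z18truncZnFmut. Every Z18fl library lay below every Z18trunc library, every Z18trunc library below every Clover library, and Z18truncZnFmut overlapped Clover. Group means were 1319 ± 128 (SD, n = 3) with Clover, 814 ± 64.0 with Z18fl, 1046 ± 109 with Z18trunc and 1518 ± 195 with Z18truncZnFmut. Relative to Clover the ratio of means was 0.617 for Z18fl, 0.793 for Z18trunc and 1.15 for Z18truncZnFmut, and Z18truncZnFmut was 1.45 times Z18trunc. Without replicate 3, Z18truncZnFmut exceeded Clover by 94.28 CPM rather than 199 and Z18trunc by 367.5 rather than 473. The 4 comparisons without overlap gave an exact permutation p of 0.1, the smallest that 3 libraries against 3 can give, or 0.152 after Benjamini-Hochberg adjustment over 35 tests. In these bulk libraries fewer cells with the RNA, less RNA per cell, less RNA bound and more other RNA recovered cannot be told apart. Transposable elements of either strand took 6.28% to 6.95% of aligned fragments in Clover, 8.10% to 8.77% in Z18fl and 8.68% to 9.59% in Z18trunc. Z18truncZnFmut had 8.37% to 16.3%. All comparisons against Clover share the same 3 Clover libraries. Outside the chromosome 1 insertion, described below, intergenic members overlapped: 193, 186 and 232 CPM with Clover, 199, 206 and 180 with Z18trunc. Z18fl lay below both, at 157, 160 and 173. Exonic and antisense members of Z18trunc also overlapped Clover, and intronic members did not (114 to 132 against 134 to 165 CPM).

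**Figure D1:**
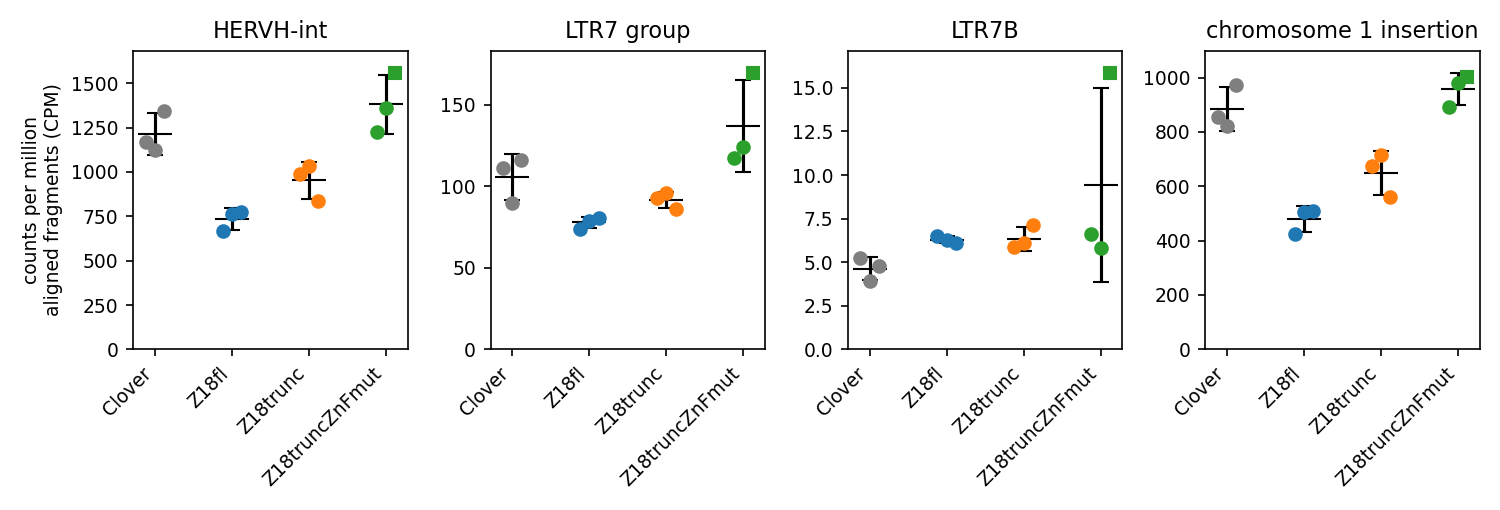
Member CPM (vertical axes, from 0) in each of the 12 libraries, for HERVH-int, the LTR7 group, LTR7B and the chromosome 1 insertion. Points are libraries, bars are mean ± SD of 3 and squares mark Z18truncZnFmut replicate 3; Z18fl lies lowest in all panels but LTR7B, where Clover lies lowest, from 3.92 to 5.21.

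HERVH-int alone followed the same order, with 1213 ± 117 CPM (SD, n = 3) with Clover, 736 ± 60.4 with Z18fl, 954 ± 104 with Z18trunc and 1381 ± 167 with Z18truncZnFmut. The LTR7 group, the 5 LTR subfamilies summed, stood at 105 ± 14.0, 77.8 ± 3.57, 91.3 ± 4.94 and 137 ± 28.4 CPM. Its Z18truncZnFmut libraries lay above Clover without overlap, by 31.4 CPM (exact permutation p = 0.1), and by 15.2 CPM without replicate 3 (exact permutation p = 0.2). The log2 ratio of HERVH-int to LTR7 group counts was 3.53 in Clover and 3.24 in Z18fl without overlap (exact permutation p = 0.1), and 3.38 in Z18trunc and 3.35 in Z18truncZnFmut, both overlapping Clover.

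Members also stood lower relative to other LTR-class elements, a ratio within each library that needs no scaling. That ratio also falls when counts on the other elements rise. The log2 ratio of member counts to counts on other LTR-class elements was -2.02 ± 0.17 (SD, n = 3) with Clover, -3.04 ± 0.10 with Z18fl, -2.68 ± 0.25 with Z18trunc and -2.46 ± 0.48 with Z18truncZnFmut. Z18fl and Z18trunc lay below Clover without overlap, by -1.02 and -0.67 (exact permutation p = 0.1 for each). Z18truncZnFmut overlapped Clover, with a difference of -0.44 (exact permutation p = 0.2) and of -0.16 without replicate 3 (exact permutation p = 0.5). Z18truncZnFmut against Z18trunc differed by 0.23 with overlap (exact permutation p = 0.6) and by 0.50 without replicate 3 (exact permutation p = 0.1).

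Summed counts of each subfamily were tested with edgeR on all subfamilies, with Benjamini-Hochberg adjusted p under 0.05 called. In Z18fl against Clover 4 of 5 tested member subfamilies were lower and none was higher. HERVH-int fell by 1.20 ± 0.088 on the log2 scale (SE, adjusted p = 4.79e-08) and LTR7 by 1.14 ± 0.095 (adjusted p = 1.73e-07). LTR7C fell by 0.74 ± 0.099 (adjusted p = 1.89e-05) and LTR7Y by 0.61 ± 0.095 (adjusted p = 9.04e-05). LTR7B had a log2 fold change of -0.03 ± 0.13 and was not called (adjusted p = 0.898). Over all 915 subfamilies tested, 20.1% were called lower and 20.1% higher, and no member was higher at an unadjusted p under 0.05 (0) or by DESeq2 (0). These fold changes use edgeR's TMM scaling. Scaling to aligned fragments shifted the all-locus median from 0.0084 to 0.48. HERVH-int then stood at -0.72 (adjusted p = 1.4e-06) and LTR7 at -0.67, both called lower, while LTR7C (-0.26, adjusted p = 0.056) and LTR7Y (-0.13, adjusted p = 0.319) were not called and LTR7B was higher (0.44, adjusted p = 0.0181). At that scaling 54.1% of 919 subfamilies were called higher and 4.24% lower.

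LTR7B was the tested member subfamily that was not called lower. Its libraries read 5.21, 3.92 and 4.78 CPM with Clover, 6.50, 6.30 and 6.08 with Z18fl, 5.85, 6.08 and 7.14 with Z18trunc, and 6.61, 5.82 and 15.9 with Z18truncZnFmut. In CPM every library of the ZC3H18 constructs lay above every Clover library, while under TMM scaling no comparison was called for LTR7B. In Z18truncZnFmut against Clover its log2 fold change was 0.04 with replicate 3 and 0.10 without it. Its counts were low, from 67 to 384 per library.

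Z18trunc against Clover gave the same 4 subfamilies lower and 0 higher, where 11.9% of 925 subfamilies were called lower and 14.5% higher (0 members higher at an unadjusted p under 0.05 and 0 by DESeq2). The log2 fold changes were -0.83 ± 0.14 for HERVH-int (SE, adjusted p = 2.13e-04) and -0.80 for LTR7 (adjusted p = 6.16e-05). LTR7C stood at -0.60 (adjusted p = 0.00374), LTR7Y at -0.59 (adjusted p = 0.00565) and LTR7B at -0.04 (adjusted p = 0.899). Without Clover replicate 3, LTR7C and LTR7Y were no longer called (-0.46, adjusted p = 0.0557, and -0.47, adjusted p = 0.0655). In a fit of all 12 libraries HERVH-int was not called (-0.80, adjusted p = 0.0786). With libraries scaled to aligned fragments, where 0.974% of 924 subfamilies were lower, HERVH-int (-0.35, adjusted p = 0.00165) and LTR7 (-0.32, adjusted p = 0.022) were lower, and LTR7C (-0.12) and LTR7Y (-0.11) were not called.

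No member subfamily was called in Z18truncZnFmut against Clover by edgeR (0 of 5, and 0 at an unadjusted p under 0.05 and 0 by DESeq2), where 1.30% of 921 subfamilies were called higher and 0% lower. HERVH-int had a log2 fold change of -0.57 ± 0.34 (SE, adjusted p = 0.415), which turned to 0.19 (adjusted p = 0.34) with libraries scaled to aligned fragments. Without replicate 3 it was -0.25 and called lower (adjusted p = 0.0203). The direction of the HERVH-int sum in Z18truncZnFmut therefore changed with the scaling. TMM factors were estimated separately for subfamily sums and for loci. In the fit of loci, the median of the 94 tested HERVH-int loci was 0.040 in this comparison. Fold changes of subfamily sums are therefore not on the same scale as those of loci and insertions below.

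Neither comparison between ZC3H18 constructs gave a called member subfamily with edgeR. In Z18trunc against Z18fl HERVH-int stood at 0.34 (adjusted p = 0.137) and LTR7 at 0.31 (adjusted p = 0.0864), where 1.48% of 948 subfamilies were higher and 2.43% lower, and 2 members passed an unadjusted p under 0.05 and 0 passed by DESeq2. HERVH-int was called higher there with libraries scaled to aligned fragments (0.38, adjusted p = 0.0415) and without Z18trunc replicate 3 (0.49, adjusted p = 3.07e-04). In Z18truncZnFmut against Z18trunc HERVH-int stood at 0.29 (adjusted p = 0.873) and at 0.57 without replicate 3 (adjusted p = 0.205), where 0% of 957 subfamilies were called in either direction, and 0 members passed an unadjusted p under 0.05 or DESeq2.

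**Figure D2:**
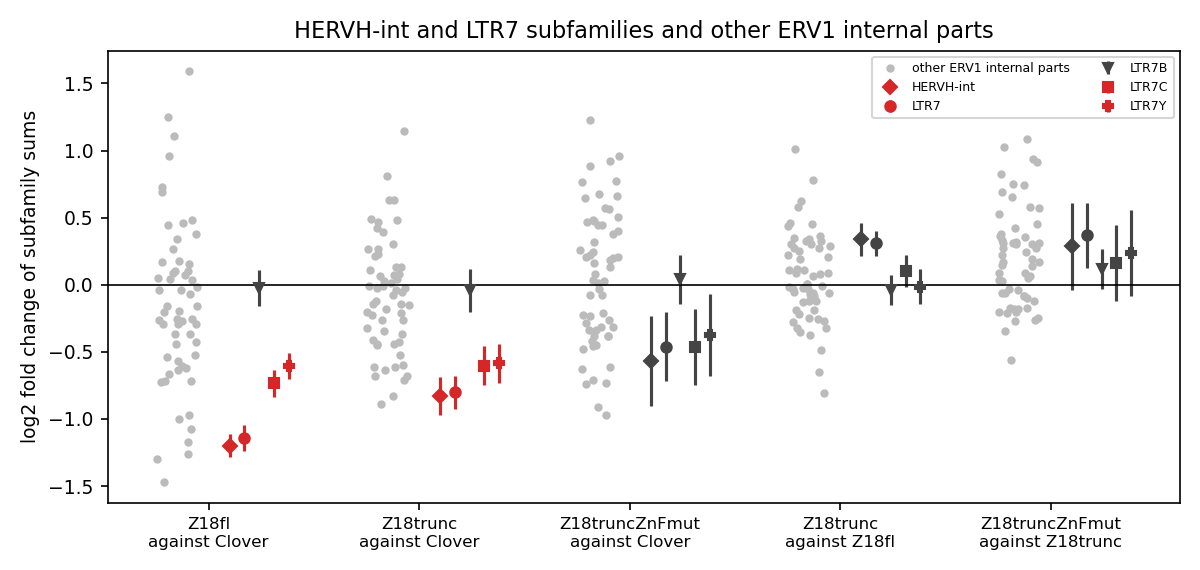
Log2 fold changes of subfamily sums (edgeR, TMM) in the 5 comparisons, with SE bars for the 5 tested member subfamilies and grey points for the other ERV1 internal parts. Red symbols were called at an adjusted p under 0.05; HERVH-int, at -1.20 in Z18fl against Clover, lies near the lower end of the grey points.

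Other internal parts of the ERV1 family, to which HERVH belongs, give the setting for these values. Of 58 tested in Z18fl against Clover, 15 were lower and 8 higher, with a median log2 fold change of -0.20, and 3 lay below HERVH-int, the lowest being PABL_A-int at -1.47. Of 58 tested in Z18trunc against Clover, 11 were lower and 4 higher, with a median of -0.064, and 2 lay below HERVH-int. In Z18truncZnFmut against Clover 0 of 59 were called by edgeR (4 higher and 8 lower at an unadjusted p under 0.05, 1 and 2 by DESeq2), and 7 lay below HERVH-int. Of the 3 subfamilies whose names mark them as related to HERVH, HERVFH21-int was lower in Z18fl (-0.37, adjusted p = 0.0452), and HERVFH19-int (-0.67, adjusted p = 0.197) and HERVH48-int (0.17, adjusted p = 0.716) were not called.

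Adjacent member elements on 1 strand within 2000 bases were joined into insertions, the former proviruses. There were 1797 insertions with counts, of which 970 held an internal part with an LTR, 236 an internal part only and 591 an LTR only. Counts were very unequal, since 1 insertion held more counts than all others together and 36 held 90% of all member counts.

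That insertion lies between genes at chr1:68386004-68391992 on the plus strand and spans 5989 bases, as an LTR7, 6 pieces of HERVH-int and a second LTR7. The nearest protein-coding gene, RPE65, the retinal enzyme of the vitamin A cycle, lies 36829 bases away on the opposite strand. The 2 LTRs were 98.4% identical, with 7 differences over 430 aligned bases. It held 193270 counts, 62.9% of all member counts, of which 69.5% mapped uniquely. Its share of member counts was 66.9%, 67.7% and 66.6% with Clover, 57.3%, 59.9% and 59.2% with Z18fl, 62.5%, 63.1% and 60.5% with Z18trunc, and 66.2%, 66.2% and 58.0% with Z18truncZnFmut.

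The chromosome 1 insertion read 856, 823 and 974 CPM with Clover, 424, 505 and 508 with Z18fl, 676, 713 and 559 with Z18trunc, and 890.0, 981 and 1002 with Z18truncZnFmut. Z18fl lay below Z18trunc, Z18trunc below Clover, and Z18truncZnFmut overlapped Clover. In Z18fl against Clover its sum fell by 1.25 ± 0.10 (log2) (SE, adjusted p = 3.52e-08) and by 0.80 ± 0.088 in Z18trunc against Clover (adjusted p = 1.1e-06). In Z18truncZnFmut against Clover it was not called (-0.08 ± 0.14, adjusted p = 0.767, and -0.13 without replicate 3, adjusted p = 0.58). It was higher in Z18trunc than in Z18fl (0.35 ± 0.081, adjusted p = 0.0126), a call lost without Z18fl replicate 1 (0.27, adjusted p = 0.108), and higher in Z18truncZnFmut than in Z18trunc (0.75 ± 0.10, adjusted p = 9.13e-04, and 0.68 without replicate 3, adjusted p = 6.94e-04). With libraries scaled to aligned fragments these 5 values were -0.88, -0.45, 0.12, 0.44 and 0.56, with the same 4 called.

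Reads were not spread evenly along the insertion. Per kb of element, Clover counts were 43.0 CPM in the 5′ LTR, 161 in the long first internal piece of 3245 bases, 202 and 228 in the pieces of 500 and 663 bases further on, 45.2 in the last internal piece and 91.1 in the 3′ LTR. Z18fl had 20.6, 83.9, 111, 120, 40.5 and 53.7 CPM per kb at the same places, and Z18truncZnFmut 43.0, 167, 221, 264, 59.9 and 103. The 3′ LTR was thus read more deeply than the 5′ LTR in each group, although 84.0% and 71.0% of their counts mapped uniquely and the near identity of the LTRs lets reads be shared between them. All 8 pieces were lower in Z18fl than in Clover, from -1.42 in the 5′ LTR to -0.52 in the last internal piece. In Z18trunc 6 of 8 were lower, in Z18truncZnFmut against Clover 0 were called (from -0.19 to 0.28), and in Z18truncZnFmut against Z18trunc 6 of 8 were higher.

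The repeats on either side on the same strand held far fewer counts. An MER41B element 380 bases upstream read 0.12 CPM per kb with Clover, and an L2a element 1851 bases downstream read 5.57 in Clover, 2.78 with Z18fl, 2.59 with Z18trunc and 5.57 with Z18truncZnFmut.

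**Figure D3:**
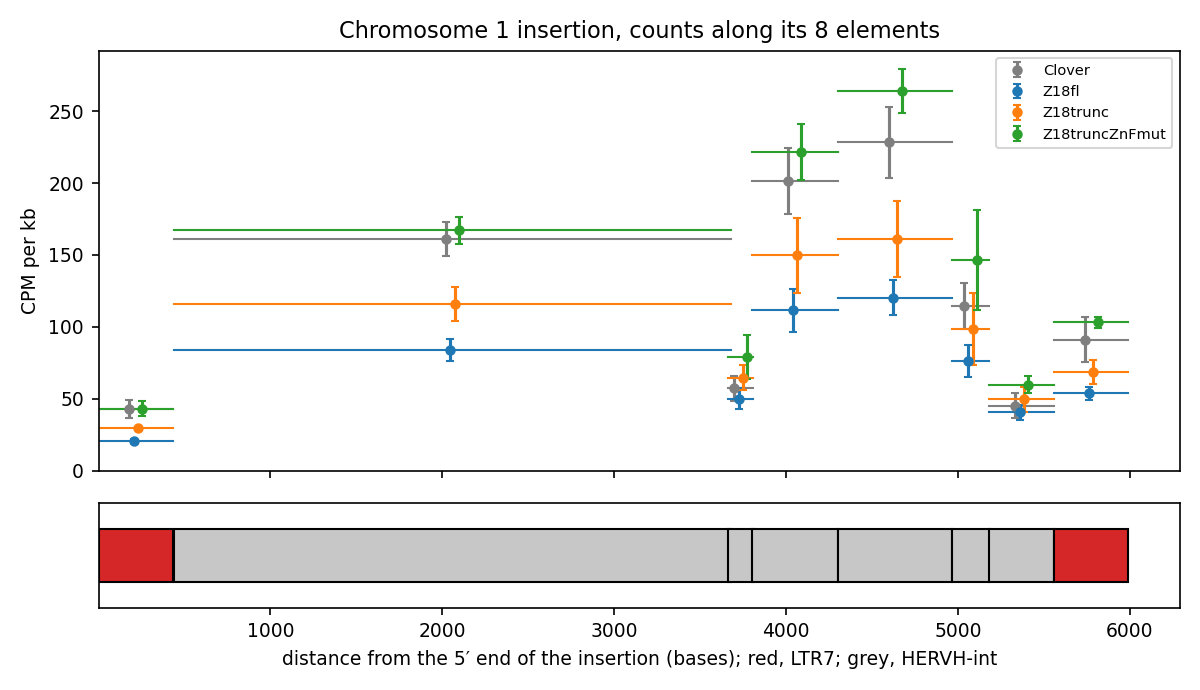
CPM per kb (vertical axis, from 0) along the 8 elements of the chromosome 1 insertion, against distance from its 5′ end in bases; points are means of 3 libraries with SD bars, horizontal lines span each element, and the lower strip shows LTR7 in red and HERVH-int in grey. Z18fl lies lowest along the whole insertion, Z18trunc lies above Clover in the pieces of 150 and 379 bases only, and the 663-base piece is the peak, at 228 in Clover and 120 in Z18fl.

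Because this insertion dominated the sums, the subfamily test was also run without it, a choice made after the data were seen. HERVH-int then stood at -0.90 in Z18fl against Clover (adjusted p = 8.44e-07) and at -0.42 with libraries scaled to aligned fragments (adjusted p = 6.33e-04). LTR7 depended on it more: without it LTR7 stood at -0.34 (adjusted p = 0.0213), turning to 0.13 when scaled to aligned fragments. In Z18trunc against Clover HERVH-int stood at -0.62 (adjusted p = 0.00177) and LTR7 at -0.14 (adjusted p = 0.518), or at -0.16 (adjusted p = 0.138) and 0.34 when scaled to aligned fragments.

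The insertion with the second largest count lies in UCA1, a long noncoding RNA known from bladder cancer, at chr19:15828738-15836170 on the plus strand. Its LTR7C copies, 95.8% identical, lie in UCA1 exons and most of its internal part is intronic. It held 5.49% of member counts, of which 34.8% mapped uniquely. It read 79.7, 72.3 and 88.4 CPM with Clover, 39.3, 45.2 and 42.5 with Z18fl, 61.2, 62.1 and 52.3 with Z18trunc, and 77.1, 85.3 and 75.5 with Z18truncZnFmut. Z18fl lay lowest and Z18trunc between it and Clover, without overlap, and Z18truncZnFmut overlapped Clover. The fall was -1.28 in Z18fl (adjusted p = 1.24e-07) and -0.80 in Z18trunc (adjusted p = 9.2e-06) against Clover. It was higher in Z18trunc than in Z18fl (0.38, adjusted p = 0.0390) and in Z18truncZnFmut than in Z18trunc (0.62, adjusted p = 0.0272). The first of these 2 calls was lost without Z18fl replicate 1 or 3 or Z18trunc replicate 1 or 2 (adjusted p up to 0.195), and the second, which was 0.62 without Z18truncZnFmut replicate 3 (adjusted p = 0.0264), without any 1 Z18trunc library (adjusted p up to 0.207) and with libraries scaled to aligned fragments (0.44, adjusted p = 0.177).

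The third, at chr18:73324615-73330362 on the plus strand with LTR7Y copies 96.8% identical, overlaps the long noncoding RNA LINC02582 and held 4.59% of member counts, 61.0% of them unique. It read 59.4, 52.2 and 63.1 CPM with Clover, 41.6, 46.9 and 47.8 with Z18fl, 50.9, 54.9 and 42.6 with Z18trunc, and 61.1, 64.9 and 59.6 with Z18truncZnFmut. Only Z18fl lay apart from Clover in CPM among the comparisons with Clover. It fell by 0.72 in Z18fl (adjusted p = 4.81e-05) and by 0.59 in Z18trunc (adjusted p = 3.71e-04), the latter not called with libraries scaled to aligned fragments (-0.23, adjusted p = 0.156).

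The fourth, between genes at chrX:4540474-4546320 on the minus strand with LTR7Y copies 95.5% identical, held 2.93% of member counts, 72.0% of them unique. It read 33.0, 33.8 and 42.3 CPM with Clover, 21.1, 22.6 and 25.1 with Z18fl, 34.9, 34.9 and 27.6 with Z18trunc, and 40.7, 48.0 and 47.1 with Z18truncZnFmut. Z18fl was again lowest without overlap. The log2 fold change was -1.03 in Z18fl (adjusted p = 3.7e-06) and -0.52 in Z18trunc (adjusted p = 0.00317), the latter not called with libraries scaled to aligned fragments (-0.16, adjusted p = 0.395). It was higher in Z18trunc than in Z18fl (0.42, adjusted p = 0.0356) and in Z18truncZnFmut than in Z18trunc (0.67, adjusted p = 0.0308, and 0.60 without replicate 3, adjusted p = 0.0579). The first of these 2 calls was lost without replicate 1 or 2 of Z18fl or of Z18trunc (adjusted p up to 0.188), and the second without any 1 Z18trunc library (adjusted p up to 0.207) or Z18truncZnFmut replicate 2 or 3.

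The fifth lies at chr13:109265090-109271116 on the plus strand, partly in the exons of LINC03061, with LTR7Y copies 98.8% identical, and held 2.33% of member counts, 66.3% of them unique. Its libraries read 24.0, 21.2 and 29.97 CPM with Clover, 26.4, 25.7 and 26.7 with Z18fl, 26.2, 27.2 and 22.6 with Z18trunc, and 26.5, 31.6 and 35.5 with Z18truncZnFmut, and all groups overlapped Clover. No comparison of its sum was called by edgeR, with -0.30 in Z18fl (adjusted p = 0.0595) and -0.34 in Z18trunc (adjusted p = 0.0507) against Clover. Without Clover replicate 2 both were called lower (-0.42, adjusted p = 0.0235, and -0.49, adjusted p = 0.0111), and without Clover replicate 1 that of Z18trunc was (-0.42, adjusted p = 0.0452). With libraries scaled to aligned fragments they turned to 0.067 and 0.015. Among its pieces, the internal part at chr13:109269433-109270085 was called lower in Z18fl (-0.74, adjusted p = 0.0291) and that at chr13:109265522-109269052 in Z18trunc (-0.34, adjusted p = 0.0448).

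**Figure D4:**
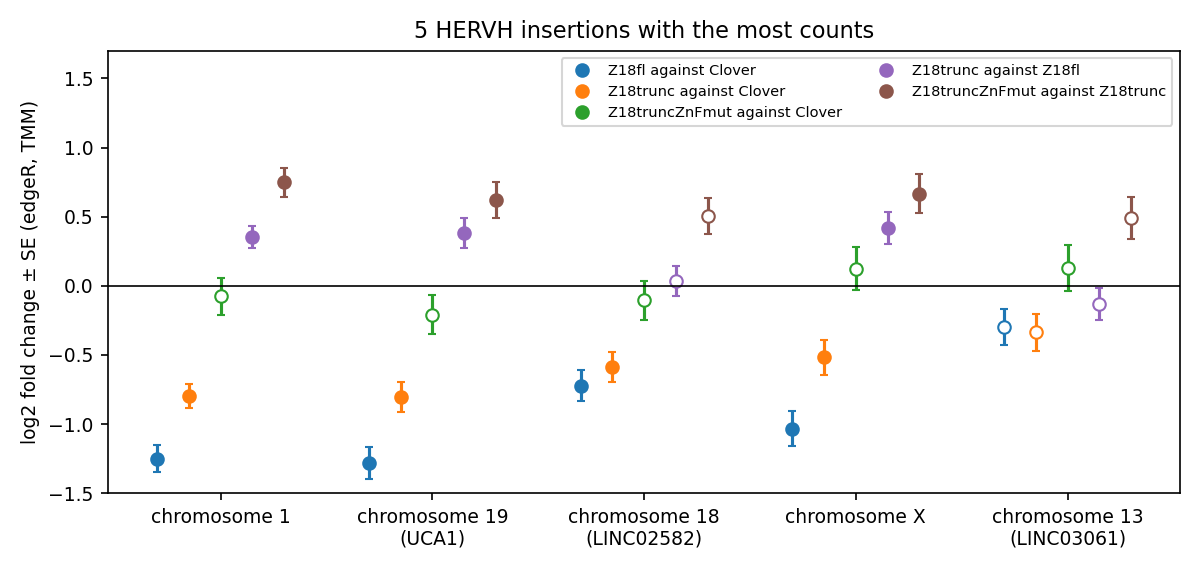
Log2 fold changes ± SE (edgeR, TMM) of the 5 insertions with the most counts in the 5 comparisons; filled points were called at an adjusted p under 0.05. The first 4 insertions lie from -1.28 to -0.72 in Z18fl against Clover and near 0 in Z18truncZnFmut against Clover, and the chromosome 13 insertion has no filled point.

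Over all insertions deep enough to test, 40 of 76 were lower and 5 higher in Z18fl against Clover, with a median log2 fold change of -0.80, where 24.7% of all units tested were lower and 28.3% higher. In Z18trunc against Clover 29 of 93 were lower and 2 higher, with a median of -0.57, where 13.5% of all units were lower and 22.5% higher. In Z18truncZnFmut against Z18trunc 8 of 99 were higher and 0 lower, with a median of 0.61, where 0.333% of all units were higher. Without replicate 3 of Z18truncZnFmut it was 4 of 115, with a median of 0.37.

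Single elements were tested next, in a fit of all loci. A locus with few counts in either group passed the count filter only through the other, so it could be tested in that direction only. In Z18fl against Clover 107 of the 4874 member loci had enough counts to be tested, and 53 were called lower and 7 higher. Over all 12098 loci tested, 24.6% were lower and 28.3% higher. The median log2 fold change of members was -0.74, against 0.0084 over all loci, and 90 of the 107 members lay below 0. The 53 lower loci came from 34 insertions, so pieces of 1 provirus were counted more than once. HERVH-int gave 43 of 83 lower and 5 higher, and the LTR7 group 10 of 24 lower and 2 higher. With libraries scaled to aligned fragments 34 of 114 were lower and 9 higher, where 13.2% of 12886 loci were lower and 38.3% higher, and the member median was -0.35, against 0.48 over all loci. Other LTR-class loci gave 461 of 1776 lower, or 26.0%, and 421 higher, with a median of -0.09.

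In Z18trunc against Clover 38 of 124 member loci were lower, from 26 insertions, and 1 was higher. Over all 13204 loci tested, 13.4% were lower and 22.5% higher. The member median was -0.51, against -0.033 over all loci. With libraries scaled to aligned fragments 12 of 118 were lower and 7 higher, where 3.69% of 13373 loci were lower and 32.0% higher, and the member median was -0.15, against 0.39 over all loci.

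In Z18truncZnFmut against Clover 3 of 118 member loci were lower and 2 higher. Over all 10152 loci, 4.83% were lower and 12.3% higher. The member median was 0.040, against -0.050 over all loci. Without replicate 3 the counts were 2 lower and 0 higher.

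Z18trunc and Z18fl differed at few members. Of 123 member loci 4 were higher in Z18trunc and 0 lower by edgeR (3 lower at an unadjusted p under 0.05 and 0 by DESeq2), while 2.62% of 19413 loci were higher and 3.13% lower. Leaving out Z18fl replicate 1 gave 1 higher and leaving out Z18trunc replicate 3 gave 9.

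The construct with the mutated zinc finger was compared with the truncated protein that carries the intact one. In Z18truncZnFmut against Z18trunc 14 of 132 member loci were higher and 0 lower by edgeR (0 lower at an unadjusted p under 0.05 and 0 by DESeq2), while 0.368% of 16833 loci were higher and 0.351% lower. The 14 came from 8 insertions, with 6 of them pieces of the chromosome 1 insertion, and outside it 8 of 124 were higher. Those on chromosomes 6 and 7 passed the count filter only through Z18truncZnFmut, so they could be tested only as rises. The member median was 0.53, against 0.013 over all loci. Other LTR-class loci gave 5 of 2139 higher and 3 lower, with a median of 0.13. The count of 14 was fragile: it was 7 without replicate 3 of Z18truncZnFmut, 22 without its replicate 1, 2 without Z18trunc replicate 1 or 3, 5 without Z18trunc replicate 2, and 2 of 138 with libraries scaled to aligned fragments, where the member median was 0.35 and 0.144% of 18001 loci were higher.

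**Figure D5:**
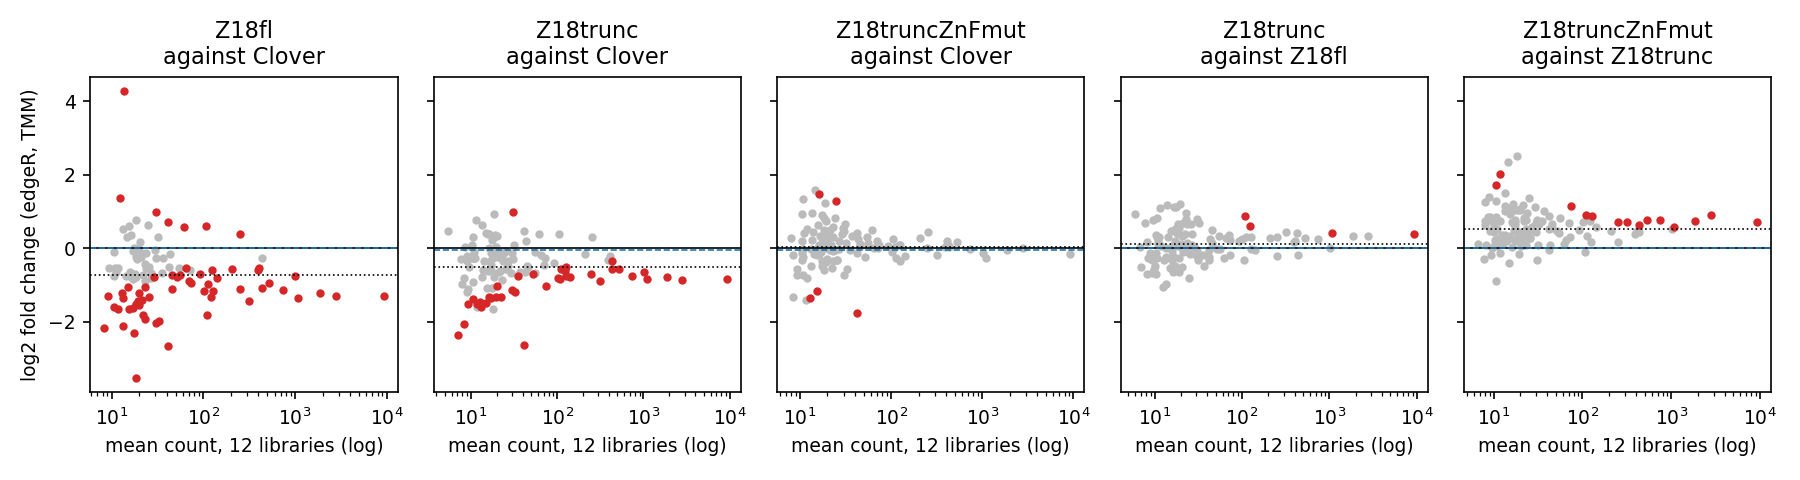
Log2 fold change (edgeR, TMM) of each tested member locus against its mean count over the 12 libraries (logarithmic axis), in the 5 comparisons; red points were called, dotted lines are member medians and dashed blue lines medians of all loci tested. Members lie mostly below 0 in Z18fl and Z18trunc against Clover (medians -0.74 and -0.51) and mostly above 0 in Z18truncZnFmut against Z18trunc (0.53).

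Of the 7 loci that rose in Z18fl, 5 were internal parts and 2 were LTRs. An LTR7C at chr17:64764753-64765196 on the minus strand, in an intron of ARHGAP27P1-BPTFP1-KPNA2P3, had 1, 0 and 1 counts with Clover, 33, 19 and 26 with Z18fl, 15, 17 and 10 with Z18trunc, and 23, 9 and 10 with Z18truncZnFmut. All 9 ZC3H18 libraries lay above the Clover libraries. Per aligned fragment Z18fl was 28.0 times Clover, with a 95% exact interval of 7.48 to 235 that covers counting error only (edgeR adjusted p = 6.7e-05). With so few Clover counts, the locus passed the count filter only through its Z18fl libraries, so it could be tested only as a rise. It was not tested in Z18trunc or Z18truncZnFmut against Clover, where the ratios were 15.1 (3.92 to 129) and 15.5 (4.03 to 132). An LTR7B at chr10:100380920-100381305 on the plus strand, in an exon of the long noncoding RNA OLMALINC, had 1, 6 and 7 counts in Clover and 23, 18 and 25 in Z18fl (1.37, adjusted p = 0.0269), a call lost without Clover replicate 1 (0.89, adjusted p = 0.135) or without Z18fl replicate 1 or 3. This LTR7B too passed the count filter only through its Z18fl libraries.

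An internal part at chr2:58115750-58118686 on the minus strand, antisense to the kinase gene VRK2, had 11, 10 and 13.9 counts in Clover, 39.7, 36.3 and 48.9 in Z18fl and 48.1, 38.1 and 37.7 in Z18trunc. It rose by 0.98 in Z18fl (adjusted p = 0.0126) and 0.99 in Z18trunc (adjusted p = 0.0197), the only tested member called higher in Z18trunc. Both calls were lost without Clover replicate 2 (adjusted p = 0.0538 and 0.0766), and that of Z18trunc also without Clover replicate 1 (adjusted p = 0.0748) or Z18trunc replicate 1 (adjusted p = 0.0577). A second internal part, at chr18:28695443-28698448 on the minus strand, rose in Z18fl (0.72, adjusted p = 0.0297), a call lost without Clover replicate 2 or 3 or Z18fl replicate 1. The other 3 internal parts that rose in Z18fl lie on chromosomes 3 (0.40, adjusted p = 0.0295), 7 (0.57, adjusted p = 0.0430) and 8 (0.60, adjusted p = 0.0114), and fall outside the rule for named loci.

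The loci that fell most had few uniquely mapping reads, so their assignment among near-identical copies is uncertain. Among those lower in Z18fl, an internal part at chr2:60421138-60421579 had 0% unique reads, with 26.8, 10.9 and 10.0 counts in Clover and 3.39, 3.61 and 0 in Z18fl. The part at chr13:66143647-66146604, 1.20% unique, had 37.2, 30.8 and 181 counts in Clover and 21.2, 18.95 and 30.4 in Z18fl, with Clover replicate 3 far above the other two. Its change was -2.66 (adjusted p = 1.79e-04), and -1.47 without that library (adjusted p = 0.00173). The part at chr3:35876022-35876522, 0.95% unique, stood at -2.29 (adjusted p = 7.89e-04). This part and that at chr2:60421138 passed the count filter only through Clover, so they could be tested only as falls.

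Of those lower in Z18trunc, an internal part antisense to LINC00433 at chr13:88515146-88518290, 15.96% unique, stood at -2.06 (adjusted p = 0.00211). An LTR7C in an exon of the zinc-finger gene ZNF107 at chr7:64686616-64686737 had 16, 8 and 9 counts in Clover and 4, 10 and 6 in Z18trunc (-1.53, adjusted p = 0.0258), a call lost without Clover replicate 1 (-1.19, adjusted p = 0.182). Both loci passed the count filter only through Clover, so they could be tested only as falls.

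For Z18truncZnFmut against Clover the 2 higher loci were an LTR7Y at chr3:104445341-104445775 (1.49, adjusted p = 0.0280) and an internal part in an intron of MIR31HG, a microRNA host transcript, at chr9:21488396-21491044 (1.29, adjusted p = 0.0239). Neither was called without replicate 3 (adjusted p = 0.137 and 0.198), nor without Clover replicate 2 or 3. The LTR7Y had 10.01, 4.33 and 5.03 counts in Clover and passed the count filter only through Z18truncZnFmut, so it could be tested only as a rise. The largest of the 3 falls was at chr13:66143647, described above (-1.77, adjusted p = 0.00708, 1.20% unique), a call kept without Z18truncZnFmut replicate 3 (-2.25, adjusted p = 0.00379) and lost without Clover replicate 3 (-0.55, adjusted p = 0.444) or Z18truncZnFmut replicate 1 or 2 (adjusted p = 0.0628 and 0.0584). The internal part at chr2:69445230-69448941 was lower with replicate 3 (-1.35, adjusted p = 0.0345) and without it (-1.53, adjusted p = 0.0469), but not without Clover replicate 1 or 2 or Z18truncZnFmut replicate 1 or 2 (adjusted p up to 0.146). An internal part in an exon of ENSG00000283633 at chr22:16611748-16614708 was lower with it (-1.16, adjusted p = 0.0496) and was not called without it (adjusted p = 0.111) or without any other of the 6 libraries. The parts at chr2:69445230 and chr22:16611748 passed the count filter only through Clover, so they could be tested only as falls.

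Between the ZC3H18 constructs, the largest change among the 4 loci called in Z18trunc against Z18fl was at an internal part at chr1:218596114-218599632, 14.7% unique, with 49.4, 50.5 and 65.1 counts in Z18fl and 127, 116 and 77.5 in Z18trunc (0.89, adjusted p = 0.00950). It was lost without Z18fl replicate 1 (adjusted p = 0.0562) or Z18trunc replicate 1 (adjusted p = 0.0675). In Z18truncZnFmut against Z18trunc the internal part at chr4:87922255-87925282, 62.1% unique, had 55.3, 66.5 and 49.0 counts in Z18trunc and 113, 99.9 and 115 in Z18truncZnFmut. It rose by 1.16 (adjusted p = 0.00773, and 1.12 without replicate 3, adjusted p = 0.0241), a call lost without Z18trunc replicate 1 (adjusted p = 0.129) or 3 (adjusted p = 0.0584). Larger changes at an internal part antisense to RNF217-AS1 on chromosome 6 (2.01, adjusted p = 0.0472) and at chr7:143539540-143542506 (1.72, adjusted p = 0.0410, 4.69% unique) were not called without replicate 3, nor without any 1 Z18trunc library. Their Z18trunc counts were 8.58, 7.01 and 2.1 on chromosome 6 and 8.39, 9 and 8.4 on chromosome 7. Both passed the count filter only through their Z18truncZnFmut libraries, so they could be tested only as rises.

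Among tested members, a smaller share of uniquely mapping reads went with a lower log2 fold change in Z18fl and Z18trunc. Of member loci with under 50% unique reads, 20 of 28 were lower and 0 higher in Z18fl, with a median of -1.35, whereas of those with at least 50% unique 33 of 79 were lower and 7 higher, with a median of -0.58. Over all 12098 loci tested, not split by unique share, 24.6% were lower and 28.3% higher. All loci were not split in this way. Low-count members such as chr2:60421138 passed the count filter only through Clover and could be tested only as falls. Across the 107 tested loci the correlation of percent unique with the log2 fold change was r = 0.47 (rho = 0.30), and across the 124 tested in Z18trunc r = 0.42 (rho = 0.33); loci share libraries and multimapping reads and are not independent. With uniquely mapping reads only, 28 of 73 loci were lower in Z18fl, where 24.5% of 8643 loci were, and 15 of 71 in Z18trunc, where 12.5% of 8593 were. The part of read sharing between copies in the result was not tested.

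Base composition, age and place in genes were described without a test. Median AU content was 51.2% in the 53 loci lower in Z18fl, 51.0% in the 7 higher and 51.3% in the 47 not called, and median divergence from the consensus, a measure of age, was 10.0%, 9.7% and 9.6%. Median log2 fold changes in Z18fl were -0.71 in exonic, -0.66 in intronic, -0.75 in antisense and -0.71 in intergenic loci. Of all member counts 81.1% lay between genes, 11.6% in introns and 2.74% in exons on the strand of the gene, and 4.52% antisense to a gene. The intron share was 11.3% ± 0.258 (SD, n = 3) with Clover, 12.98% ± 0.370 with Z18fl, 11.9% ± 0.417 with Z18trunc and 10.998% ± 0.428 with Z18truncZnFmut, with Z18fl and Z18trunc above Clover without overlap (exact permutation p = 0.1 for each). Z18truncZnFmut differed from Clover by -0.28 points, and by -0.037 without replicate 3. In CPM, intronic member counts were 149 ± 15.4 (SD, n = 3) with Clover, 105 ± 6.39 with Z18fl, 124 ± 8.95 with Z18trunc and 166 ± 14.8 with Z18truncZnFmut. The intron share in Z18fl and Z18trunc thus rose while intronic counts fell. Most of the 35731 intronic counts came from the longest HERVH-int elements in UCA1 and LINC02582, with means of 1086 and 1007 counts per library. The share thus mainly reflects these elements. The chromosome 1 insertion, which lies between genes, held 67.1% of member counts on average in Clover, 58.8% in Z18fl and 62.0% in Z18trunc.

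Nearly all reads on members came from the strand of the element. That strand held 96.6% ± 0.494 (SD, n = 3) of member counts with Clover, 93.2% ± 1.66 with Z18fl, 93.1% ± 2.69 with Z18trunc and 92.7% ± 4.52 with Z18truncZnFmut, where replicate 3 was lowest at 87.5%. Each ZC3H18 construct lay below Clover without overlap (exact permutation p = 0.1 for each, adjusted 0.152). For Z18truncZnFmut the difference was -3.90 points with replicate 3 and -1.3 without it. Over all transposable elements the mean share was 60.5% with Clover, 61.7% with Z18fl, 62.6% with Z18trunc and 60.0% with Z18truncZnFmut. Antisense counts on members were 46.1 ± 4.56 CPM with Clover, 59.2 ± 10.6 with Z18fl, 76.0 ± 23.2 with Z18trunc and 129 ± 103 with Z18truncZnFmut.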

How the data were processed

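Bound RNA was measured in 12 anti-V5 PAR-CLIP libraries, grouped by the constructs in the sample titles. The authors trimmed reads (cutadapt 4.6 in the submitters' processing notes), and SQuIRE mapped them to hg38 and assigned them to repeat elements by strand, 1 file per library. The deposited totals are expected counts, in which multimapping reads are shared by expectation maximization. The deposited uniquely mapping reads and aligned fragments are counts. The deposited score is a percent of the reads aligned to an element, and the authors' FPKM columns were not used.

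Totals on the element's strand were rounded and tested over all loci of 6 transposable element classes by edgeR 4.0.16 (quasi-likelihood test, R 4.3.3, TMM, filterByExpr with a minimum count of 10 and a minimum total of 15), using the 6 libraries compared, with Benjamini-Hochberg adjusted p under 0.05 called. Sums per subfamily and per insertion (elements within 2000 bases; insertion sums replaced their elements in the fit) were tested alike. TMM factors were estimated separately in each fit, so fold changes from different fits are not on the same scale. A locus with few counts in either group passed the filter only through the other. CPM used aligned fragments. Two-sided exact permutation tests compared 7 measures in 5 comparisons. Alternatives were DESeq2 1.42.0, aligned library sizes, no filter, unique reads, either strand, every repeat class, all 12 libraries in a fit, a fit blocked on replicate number, and leaving out single libraries. The tests were run on simulated data with balanced planted changes and a fixed dispersion. Those simulated data do not cover the difference between TMM and aligned scaling.

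An element was exonic with at least 50% of its length in GENCODE release 44 exons. Single loci named were the 10 with the highest mean CPM and, for each construct against Clover, up to 4 called higher and 3 lower with the largest changes, no overlap between groups and a mean of at least 10 counts in the higher group, and up to 3 in the other comparisons; the 5 insertions with the most counts were described. Members and lists were chosen with earlier results of these data known. Motifs were searched in hg38 sequence read with pysam 0.24.0, and LTR pairs were aligned with biopython 1.88; the sequences themselves are not reported here. Python 3.11.15, numpy 2.4.6, pandas 2.3.3, scipy 1.17.1 and matplotlib 3.10.9 did the rest. Intervals cover counting error only, since reads carried no molecular identifiers.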

Additional observations from a re-analysis of the deposited data

How the results depend on the processing

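Over 116 results and 1329 alternatives, 1055 values kept their direction and their side of the threshold, 142 lost a call, 12 gained one, 56 changed direction and 64 counts moved by over 1.5 times. The falls of HERVH-int, LTR7 and the first 4 insertions in Z18fl against Clover kept direction and call under each alternative run, except LTR7 without the chromosome 1 insertion scaled to aligned fragments (0.13). Where values below moved, the cause was not tested. Low counts limit most elements, since only 107 to 132 of 4874 were tested.

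Counts of called member loci moved as follows, and calls over all loci moved with the setting too. In Z18fl against Clover, lower calls over all loci were 2981 of 12098, 1699 of 12886 with aligned library sizes and 2116 of 8643 with unique reads. In Z18trunc against Clover they were 1773 of 13204, 494 of 13373 and 1077 of 8593. A moved member count alone is therefore not a change of members relative to other loci. In Z18fl against Clover, 7 higher became 4 with DESeq2 or without the filter, and 53 lower became 34 with aligned library sizes, 28 with unique reads and 26 without the filter. In Z18trunc against Clover, 1 higher became 0 with DESeq2 or unique reads, 7 with aligned library sizes and 3 with either strand, all 12 libraries or no filter, and 38 lower became 12 with aligned library sizes, 15 with unique reads and 3 without the filter. In Z18truncZnFmut against Clover, 2 higher became 1 with DESeq2 or unique reads, 6 with aligned library sizes and 4 with all 12 libraries, and 3 lower became 0 with DESeq2, 1 with aligned library sizes, unique reads, either strand or no filter, and 8 with all 12 libraries. In Z18trunc against Z18fl, 4 higher became 7 with aligned library sizes or unique reads, 2 with every repeat class or all 12 libraries and 1 without the filter, and 0 lower became 1 with unique reads. In Z18truncZnFmut against Z18trunc, 14 higher became 2 with aligned library sizes, 7 with either strand, 1 with every repeat class and 3 without the filter.

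Leaving out 1 library gave 3 to 7 higher and 38 to 66 lower in Z18fl against Clover (fewest higher without Clover replicate 2), 0 to 4 and 26 to 40 in Z18trunc against Clover (most higher without Clover replicate 3), 0 to 7 and 0 to 2 in Z18truncZnFmut against Clover (most higher without its replicate 1), 1 to 9 higher in Z18trunc against Z18fl, and 2 to 22 higher in Z18truncZnFmut against Z18trunc. Over all loci, lower calls in Z18fl against Clover then ran from 1996 of 10642 (without Z18fl replicate 3) to 3500 of 19669 (without Clover replicate 2). The HERVH-int sum ranged from -0.76 to -0.25 in Z18truncZnFmut against Clover and from 0.26 to 0.49 in Z18trunc against Z18fl. Directions changed within these ranges: LTR7B from -0.11 to 0.031 in Z18fl, from -0.12 to 0.049 in Z18trunc and from -0.049 to 0.099 in Z18truncZnFmut against Clover, LTR7Y from -0.12 to 0.15 and the chromosome 18 insertion from -0.030 to 0.11 in Z18trunc against Z18fl, and in Z18truncZnFmut against Clover the insertions on chromosome 1 from -0.17 to 0.13, 18 from -0.22 to 0.060, X from -0.0094 to 0.35 and 13 from -0.016 to 0.39. The log2 ratio of HERVH-int to LTR7 group counts ranged from -0.086 to 0.040 in Z18truncZnFmut against Z18trunc, and the share on the element's strand from -1.01 to 1.48 points in Z18trunc against Z18fl and from -1.94 to 2.21 in Z18truncZnFmut against Z18trunc.

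Aligned library sizes turned LTR7B to 0.44 in Z18fl, 0.46 in Z18trunc (both against Clover) and 0.015 in Z18trunc against Z18fl, LTR7Y to 0.027 there, and the chromosome 13 insertion to 0.067 and 0.015 in Z18fl and Z18trunc against Clover. In Z18truncZnFmut against Clover they turned HERVH-int to 0.19, LTR7 to 0.34, LTR7C to 0.31, LTR7Y to 0.37 and the insertions on chromosomes 1 and 18 to 0.12 and 0.088, and they made HERVH-int called in Z18trunc against Z18fl (0.38). Without the chromosome 1 insertion LTR7 turned to 0.093 in Z18truncZnFmut against Clover, and with aligned library sizes as well HERVH-int stood at -0.16 (not called) in Z18trunc and 0.33 in Z18truncZnFmut, and LTR7 at 0.34 and 1.23. With all 12 libraries HERVH-int in Z18trunc against Clover lost its call (-0.80) and LTR7Y in Z18trunc against Z18fl turned to 0.037. Unique reads turned LTR7B to 0.059 in Z18fl and 0.032 in Z18trunc, the chromosome 1 insertion to 0.034 in Z18truncZnFmut against Clover, the chromosome 18 insertion to -0.012 in Z18trunc against Z18fl, the intron share to 0.24 points in Z18truncZnFmut against Clover and the strand share to 0.097 in Z18trunc against Z18fl. Reads on either strand turned LTR7B to -0.17 in Z18truncZnFmut against Clover, 0.11 in Z18trunc against Z18fl and -0.036 in Z18truncZnFmut against Z18trunc, LTR7Y to 0.0043 in Z18trunc against Z18fl, the ratio of HERVH-int to the LTR7 group to 0.0062 in Z18truncZnFmut against Z18trunc and the intron share to 0.82 points in Z18truncZnFmut against Clover. Every repeat class turned LTR7B to 0.016 in Z18trunc against Clover, and DESeq2 turned LTR7Y to 0.0056 in Z18trunc against Z18fl. Scaled to 1000000 counts on transposable elements, Z18truncZnFmut lay below Clover by -9059 for all members, -8553 for HERVH-int and -506 for the LTR7 group.

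No pairing by replicate number was seen: the correlations of deviations of same-numbered libraries ran from -0.080 to 0.035 over 15 pairs, and 3 of 15 correlated best with their own number. With 3 libraries per group these correlations cannot exclude shared processing by number, on which the labels are silent. A replicate block gave 48 lower and 6 higher member loci in Z18fl against Clover, 34 and 1 in Z18trunc against Clover, 1 and 1 in Z18truncZnFmut against Clover, 2 higher in Z18trunc against Z18fl and 4 higher in Z18truncZnFmut against Z18trunc. The block also ended the calls of the chromosome 19 insertion (0.39 and 0.62) and the chromosome X insertion (0.42 and 0.66) in these last 2 comparisons. Over all loci it gave 2620 lower and 3176 higher of 12098 in Z18fl against Clover, and 1365 and 2780 of 13204 in Z18trunc against Clover. Fits of insertion sums and fits without the chromosome 1 insertion were chosen after seeing the data.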
